A study of Mus musculus with 6 samples.

Results

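The suppressors of cytokine signalling (SOCS) are a family of 8 genes in the mouse, Socs1 to Socs7 and Cish, and their transcripts were read by 12 probe sets of an Affymetrix array out of 35557. The probe sets were those to which the platform annotation gives a single gene symbol that belongs to the family. The place and strand of their probes are not given. Socs2 and Socs3 had 2 probe sets each, Socs6 had 3, and the other 5 genes had 1. No filter on low values was applied, so all 12 are described. Tibialis anterior, a mixed limb muscle, was profiled on 6 arrays. Per the labels, 3 came from control C57Bl6J mice and 3 from MLC-SOCS-3 mice, which carry a SOCS-3 transgene, on the same C57Bl6J strain. All mice were 11 weeks old and had been starved for 6 h before the muscle was frozen. The labels do not spell out the MLC prefix, the transgene's promoter, the number of founder lines, or whether the numbered replicates are separate animals, so p-values measure only the spread between these arrays, which may be technical.

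SOCS proteins are the feedback brake of JAK-STAT signalling. A cytokine or growth hormone binds its receptor, Janus kinases (JAKs) phosphorylate the receptor and STAT factors, and the STATs switch on target genes that include the SOCS genes themselves. Each SOCS protein binds a phosphorylated receptor or kinase through an SH2 domain, and its SOCS box brings in elongins B and C and cullin 5 so that the bound protein is ubiquitinated. SOCS1 and SOCS3 also block the kinase directly. In muscle, growth hormone acts through STAT5, whose best known feedback targets are Cish and Socs2, while interleukin-6 and its relatives act through STAT3 and Socs3.

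Values are log2 intensities made by RMA, which corrects background, equalises the arrays and summarises the probes of a set. A difference is the mean of the MLC-SOCS-3 arrays minus the control mean on this log2 scale, and its standard error (SE) is limma's moderated one. The table has no detection calls. A level is placed only against 5.99, the median probe set, above which 11 of the 12 probe sets lay; the array medians ran from 5.98 to 6.04. The third Socs6 probe set, at a mean of 2.78, was the one below. All 12 skeletal muscle markers that were looked up lay above the median probe set, between 6.50 and 14.59.

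None of the 12 probe sets passed limma's test after adjustment over all 35557 probe sets (smallest adjusted p = 0.69, for Socs2), and neither did any other probe set (0%). Without adjustment, 5 of the 12 had p under 0.05 and all 5 were lower on the arrays labelled MLC-SOCS-3, where 3.4% of all probe sets had such a p and a negative difference. None was higher, against 2.52% of all probe sets. With each array centred on its median, 2.71% of all probe sets were lower and 3.17% higher, so the balance of directions over the table depends on the scaling. The same 5 probe sets, of Cish, Socs2 and Socs3, were those whose groups did not overlap, with every MLC-SOCS-3 array below every control array. Over the whole table, 6.76% of probe sets were separated in that direction and 5.04% in the other. The remaining 7 probe sets, of Socs1, Socs4, Socs5, Socs6 and Socs7, had overlapping groups.

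**Figure D1:**
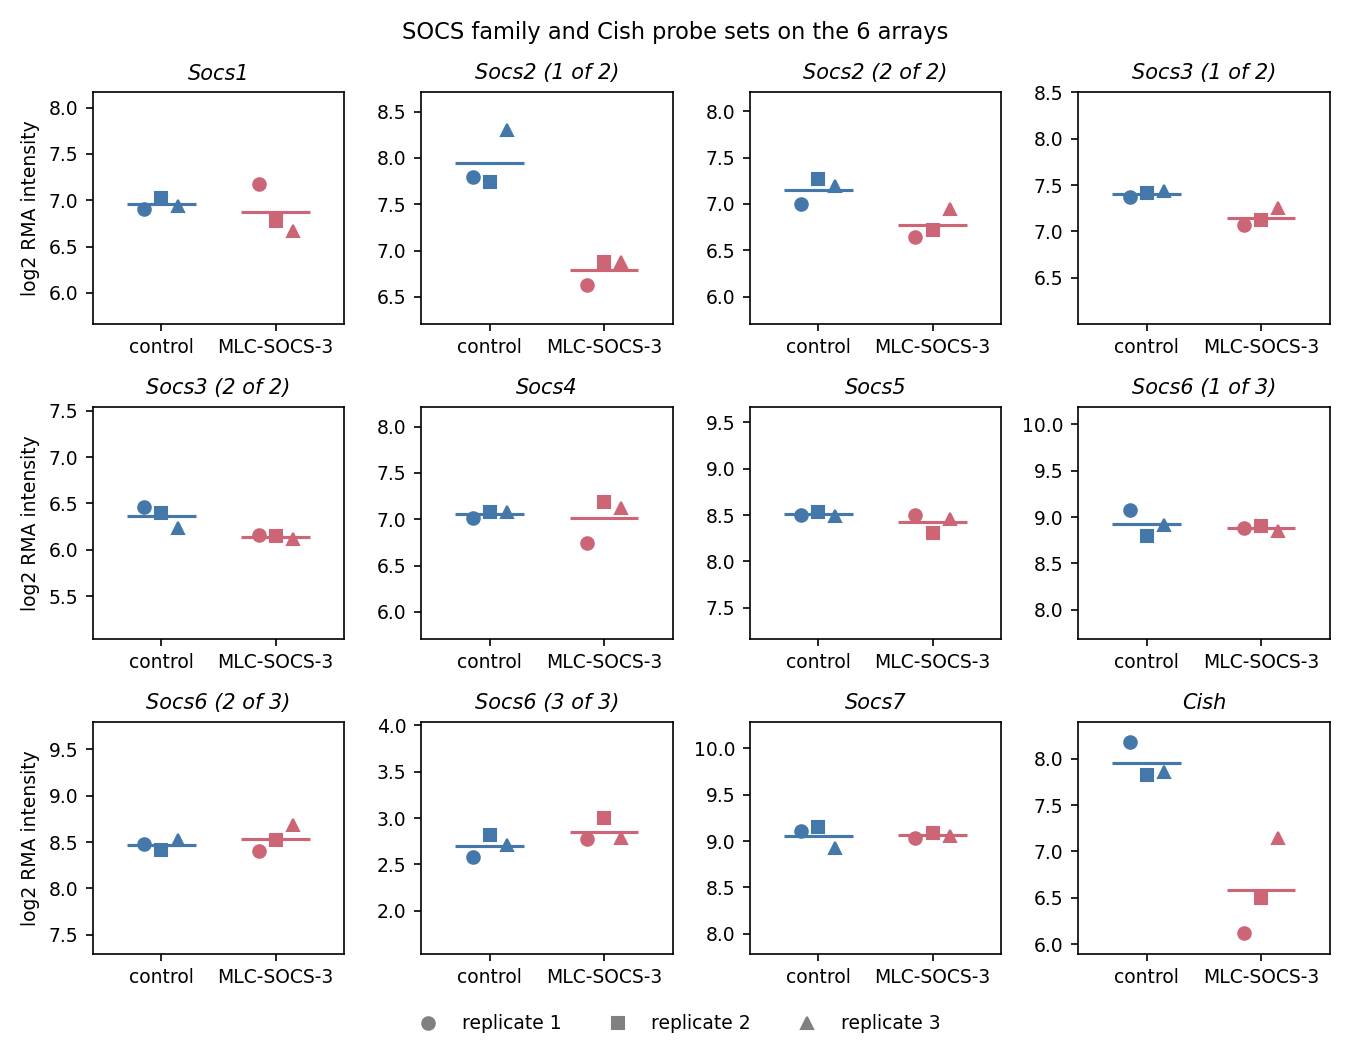
Log2 RMA intensity (y axis, of equal span in every panel) of the 12 SOCS family and Cish probe sets on 3 control arrays (blue) and 3 arrays labelled MLC-SOCS-3 (red); marker shapes give the replicate number and bars the group means. The groups are separate for Cish, both Socs2 and both Socs3 probe sets, and overlap in the other 7 panels.

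Socs3 encodes the protein that the transgene is named for, an inhibitor of gp130 receptor signalling and of the insulin receptor. Its brighter probe set (10393449) read 7.37, 7.41 and 7.43 on the control arrays and 7.07, 7.12 and 7.25 on the arrays labelled MLC-SOCS-3. The groups did not overlap, but the gap between them was 0.12, and the level was lower where the label names the transgene. The difference was -0.26 ± 0.07 (SE; 95% interval -0.43 to -0.08), a 1.20-fold lower intensity (limma, adjusted p = 0.80; n = 3 and 3). The dimmer probe set (10383010), which the annotation ties to a single GenBank sequence, read 6.46, 6.40 and 6.23 in controls and 6.15, 6.15 and 6.12 on the MLC-SOCS-3 arrays. Its difference was -0.22 ± 0.08 (SE), with an adjusted p of 0.82 in limma, and again every MLC-SOCS-3 array lay below every control. The 2 probe sets were not told apart in their differences, which were -0.03 from each other (exact permutation test, two-sided, p = 0.70). By number, the brighter set falls between Tha1 (10393436) and Dnah17 (10393453), and the dimmer between Tmem235 (10383005) and Pgs1 (10383012). These neighbours of Socs3 stand in separate runs of numbers. Whether both sets read the strand of Socs3 is not given, so the dimmer may not be a second reading of its transcript. Neither the sequence of the transgene nor the position of the probes is given, so a transgene transcript that lacks the probed part would not be seen here. Directions are therefore given for the arrays as labelled.

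Cish encodes CIS, the founding member of the family, which is induced by STAT5 and acts on receptors of the growth hormone and erythropoietin type. Its probe set (10588577) read 8.18, 7.82 and 7.85 on the control arrays and 6.12, 6.49 and 7.15 on the arrays labelled MLC-SOCS-3. Controls lay within 0.35 of each other, whereas the MLC-SOCS-3 arrays spread over 1.03, with replicate 1 lowest and replicate 3 nearest to the controls, 0.68 below the lowest of them. The difference was -1.37 ± 0.27 (SE; 95% interval -2.02 to -0.71), a 2.58-fold lower intensity. This was the most negative difference among the 19938 genes with a single symbol, each taken at its brightest probe set, yet its adjusted p in limma was 0.73. By unadjusted p, 95 of the 35557 probe sets came before it. Because whole muscle was measured, fewer cells of a type and less RNA per cell cannot be told apart, here and for the genes that follow.

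The start of Cish is shown because it holds a pair of close matches to the palindrome TTCNNNGAA, the core of the sites that STAT dimers bind (the palindrome reads the same on both strands). The sequence is RefSeq's for GRCm38.p6, chr9:107296409-107296678, plus strand, and covers 250 bases before the annotated start and the first 20 bases of the transcript, with the matches in capitals.
Cish: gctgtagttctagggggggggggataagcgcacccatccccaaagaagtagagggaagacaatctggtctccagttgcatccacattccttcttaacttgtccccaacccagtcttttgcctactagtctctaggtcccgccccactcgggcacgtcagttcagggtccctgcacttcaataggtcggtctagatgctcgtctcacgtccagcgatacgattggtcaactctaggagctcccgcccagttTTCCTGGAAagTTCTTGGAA
The matches, TTCCTGGAA and TTCTTGGAA, cover bases 1 to 9 and 12 to 20 counted from the annotated start. Of 32851 mouse promoter windows of this kind, each with 250 bases before and 50 after a start, 8.3% held at least 1 match and 0.457% held 2 or more. A window was found for 4 of the 8 family members. Socs3 had 1 match, which covers bases -154 to -146 from the start on the minus strand of chromosome 11, and is shown in 30 bases at chr11:117969501-117969530 for comparison with Cish.
Socs3: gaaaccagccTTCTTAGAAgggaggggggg
No match lay in the windows of Socs1 and Socs4. Windows of Socs2, Socs5, Socs6 and Socs7 were not analysed here. A match of letters is a description of the sequence and does not show that a STAT binds there in this muscle.

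Socs2 is the other classical STAT5 target of the family, and its protein restrains growth hormone receptor signalling. Its brighter probe set (10394674) read 7.79, 7.74 and 8.30 on the control arrays and 6.63, 6.88 and 6.88 on the arrays labelled MLC-SOCS-3. The gap between the groups was 0.86, wider than the range of either group, and control replicate 3 was the highest array. The difference was -1.15 ± 0.17 (SE; 95% interval -1.56 to -0.74), a 2.22-fold lower intensity (limma, adjusted p = 0.69; n = 3 and 3). It was the fourth most negative of the 19938 genes, and 22 of the 35557 probe sets had a smaller unadjusted p. The dimmer probe set (10372069) read 6.99, 7.27 and 7.19 in controls and 6.64, 6.71 and 6.95 on the MLC-SOCS-3 arrays. The gap between its groups was 0.05, far smaller than their ranges of 0.28 and 0.30. Its difference was -0.38 ± 0.11 (SE), a 1.30-fold lower intensity with an adjusted p of 0.80 in limma. By number, the dimmer set falls between the probe sets of Cradd (10372060) and Mrpl42 (10372078), the genes directly beside Socs2. The brighter set does not. Which locus the brighter set reads was not tested, so its larger difference may not be that of Socs2 transcripts.

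The 2 Socs2 probe sets gave differences of unequal size. The brighter set minus the dimmer one came to -0.77, and this per-array contrast separated the groups. An exact two-sided permutation test gave p = 0.10, the smallest that 3 arrays against 3 can give, and 0.23 after Benjamini-Hochberg adjustment over the 7 such contrasts computed. Against the brighter Socs3 probe set, the same subtraction gave -0.89 for Socs2 and -1.11 for Cish. Both contrasts also separated the groups and had the same exact p of 0.10 (adjusted 0.23), so the design cannot place them past a threshold of 0.05. In the only alternative that called Socs2, limma on the 23410 probe sets listed in the annotation with robust moderation that follows the mean-variance trend, chosen after earlier results were known, the brighter set had an adjusted p of 0.039. In that setting Cish had an adjusted p of 0.54 and was not called.

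**Figure D2:**
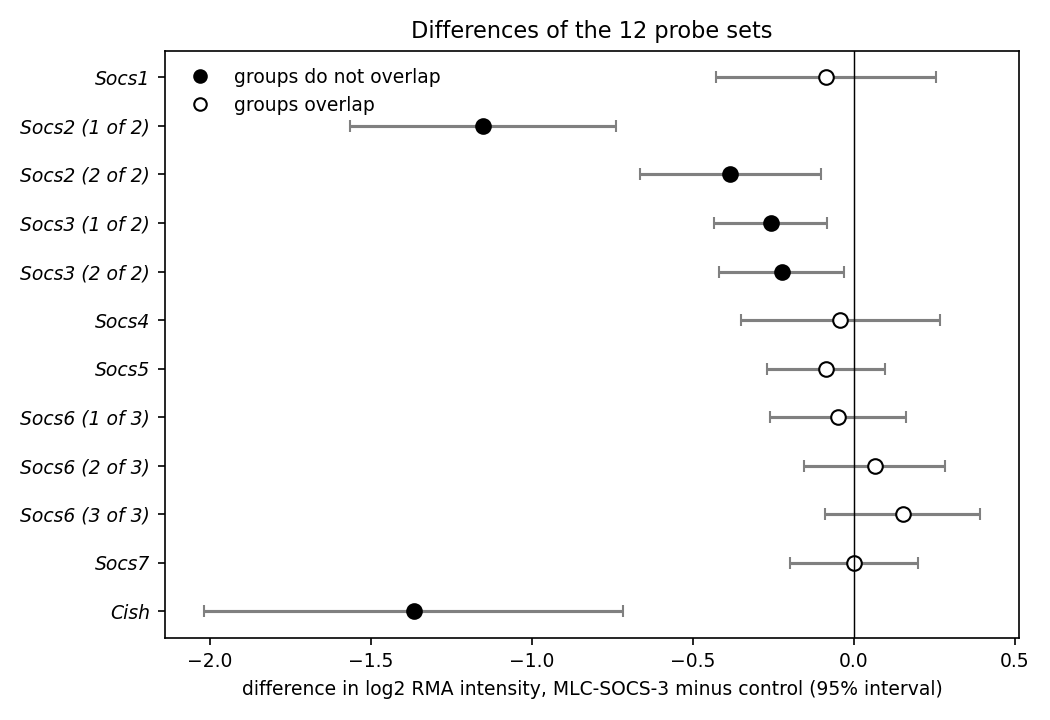
Difference in log2 RMA intensity (x axis, MLC-SOCS-3 minus control) of each of the 12 probe sets, with limma's 95% interval as the bar; filled points mark probe sets whose groups do not overlap. Cish at -1.37 and the brighter Socs2 set at -1.15 lie apart from the other 10, which lie between -0.38 and 0.15.

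Socs1 encodes the family's strongest inhibitor of interferon signalling. Its probe set (10437668) read 6.90, 7.02 and 6.94 on the control arrays and 7.17, 6.77 and 6.66 on the MLC-SOCS-3 arrays. Controls lay close together and inside the MLC-SOCS-3 range, of which replicate 1 was the highest array of all 6 and replicate 3 the lowest. The difference was -0.08 ± 0.14 (SE), and its 95% interval runs from a 1.34-fold lower to a 1.20-fold higher intensity (limma, adjusted p = 0.94).

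Socs4 and Socs5 are a closely related pair whose proteins act on the epidermal growth factor receptor. Socs4 (10414350) read 7.01, 7.07 and 7.07 in controls and 6.74, 7.18 and 7.12 on the MLC-SOCS-3 arrays, so that only replicate 1 lay below the controls. The Socs4 difference was -0.04 ± 0.13 (SE), with a 95% interval of -0.35 to 0.27. Socs5 (10447356) read 8.50, 8.53 and 8.49 in controls and 8.50, 8.30 and 8.46 on the MLC-SOCS-3 arrays. It missed separation through replicate 1, which lay within the control range, and differed by -0.09 ± 0.08 (SE; 95% interval -0.27 to 0.10).

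Socs6 and Socs7, the other pair, encode proteins with long N-terminal regions that bind insulin receptor substrates and related adaptors. Socs7 (10380761) read 9.11, 9.15 and 8.92 in controls and 9.04, 9.09 and 9.06 on the MLC-SOCS-3 arrays. All MLC-SOCS-3 values of Socs7 fell inside the control range, with a difference of 0.0013 ± 0.08 (SE) that turned to -0.01 under quantile normalization. Its 95% interval of -0.20 to 0.20 leaves at most a 1.15-fold difference either way. The brightest Socs6 probe set (10566668) read 9.08, 8.80 and 8.91 in controls and 8.88, 8.91 and 8.85 on the MLC-SOCS-3 arrays. The second (10460118) read 8.48, 8.41 and 8.52 against 8.41, 8.52 and 8.68, and the third (10460116), the dim one, 2.57, 2.81 and 2.71 against 2.77, 2.998 and 2.79. Their differences were -0.05, 0.07 and 0.15, all with overlapping groups and adjusted p-values of 0.86 to 0.95 in limma. The exact permutation tests between pairs of these sets gave p of 0.30 to 0.70. By number, 10460118 and 10460116 fall between the probe sets of Timm21 (10460102) and Dok6 (10460127), which are among the genes around Socs6. The brightest set does not. Which locus the brightest set reads was not tested, so its negative difference may not be that of Socs6 transcripts.

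The arrays labelled MLC-SOCS-3 were not alike over the family. Replicate 1 had the lowest reading of that group for Cish, for both Socs2 probe sets and for the brighter Socs3 set, and also for Socs4, Socs7 and 2 of the Socs6 sets. Relative to the control mean it was at -1.84 for Cish, -1.32 for Socs2 and -0.33 for Socs3. Replicate 3 was at -0.81, -1.06 and -0.16 for the same probe sets. For Socs1, Socs5 and the dimmer Socs3 set replicate 1 was instead the highest of its group. Leaving out any 1 of the 6 arrays left Cish between -1.65 and -1.13, the brighter Socs2 set between -1.25 and -0.97, and the brighter Socs3 set between -0.31 and -0.22.

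**Figure D3:**
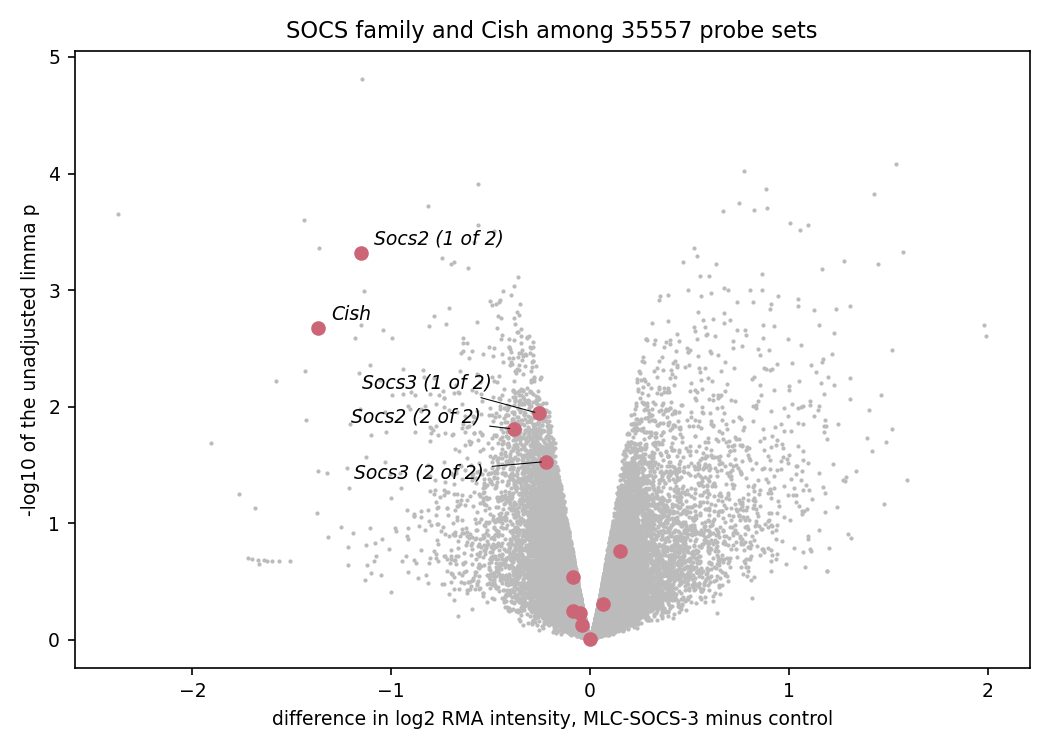
Difference in log2 RMA intensity (x axis, MLC-SOCS-3 minus control) against -log10 of the unadjusted limma p (y axis) for all 35557 probe sets (grey), with the 12 family probe sets in red. The brighter Socs2 set and Cish stand at the left edge of the cloud, both Socs3 sets and the dimmer Socs2 set on its left flank, and the other 7 near its base.

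Socs2 lies on chromosome 10, in gene order 23 measured protein-coding genes from Apaf1, the apoptosome scaffold, which had the most positive difference of the 19938 genes (1.01). The 10 nearest measured genes around Socs2 had a median difference of -0.03 and ranged from -0.30 (Ndufa12, a subunit of respiratory complex I) to 0.19 (Ube2n, a ubiquitin-conjugating enzyme). Of these neighbours 6 were negative and 4 positive, and Cradd and Mrpl42, directly beside Socs2, were at -0.11 and 0.16. These places are those of the genes, not of the probe sets. By number, only the dimmer Socs2 set (-0.38) falls between the probe sets of Cradd and Mrpl42. The 10 genes around Cish on chromosome 9 had a median of -0.06, with 7 negative and 3 positive. Of these, 2 were lower without overlap, 6430571L13Rik at -0.36, the most negative, and Rbm15b at -0.19. Around Socs3 on chromosome 11 the 10 genes had a median of 0.01, with 4 negative and 6 positive. There 1 gene, Tmem235 at -0.21, was lower without overlap. Around Socs2, Ndufa12 was lower and Ube2n higher without overlap. Among all genes, 7.76% were lower and 4.52% higher without overlap.

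Profiles over the 6 arrays were compared by the root mean square distance between profiles centred on their own means. Each gene was taken at its brightest probe set, so Socs2 here is its brighter set, whose locus was not tested. Outside the family, Casp12 (0.20), Iigp1 (0.24) and Htra4 (0.25) lay nearest to that set. Casp12, a caspase of the endoplasmic reticulum, read 7.85, 7.94 and 7.85 in controls and 6.57, 6.86 and 6.78 on the MLC-SOCS-3 arrays. Iigp1, an interferon-inducible GTPase, read 6.73, 6.89 and 7.26 against 6.26, 6.24 and 6.22. Control replicate 3 was its highest array, as it was for the brighter Socs2 set. The dimmer Socs2 set was instead highest on control replicate 2, at 7.27, and its nearest profiles were not sought. Cish itself was 0.36 from Socs2, and 11 of the 18611 genes outside the family lay closer. Nearest to Cish outside the family were Casp12 (0.31), Tmem100 (0.32), a membrane protein of endothelium and sensory neurons, and Mss51 (0.37), a mitochondrial protein of fast muscle fibres. Socs2, at 0.36, lay closer to Cish than Mss51 did. Tmem100 read 9.67, 9.24 and 9.25 in controls and 8.37, 7.80 and 8.54 on the MLC-SOCS-3 arrays. Mss51 shared with Cish its highest reading on control replicate 1, at 9.83 against 8.55 and 9.11 on the other controls. Nearest to Socs3 outside the family were Skint10 (0.01), Kcnh3 (0.02) and Cdh8 (0.03). Skint10 had a mean of 3.39 in controls and 3.12 on the MLC-SOCS-3 arrays, and the Socs3 profile has so small a range that many genes lie close to it. These distances rank genes over 6 arrays and carry no test.

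**Figure D4:**
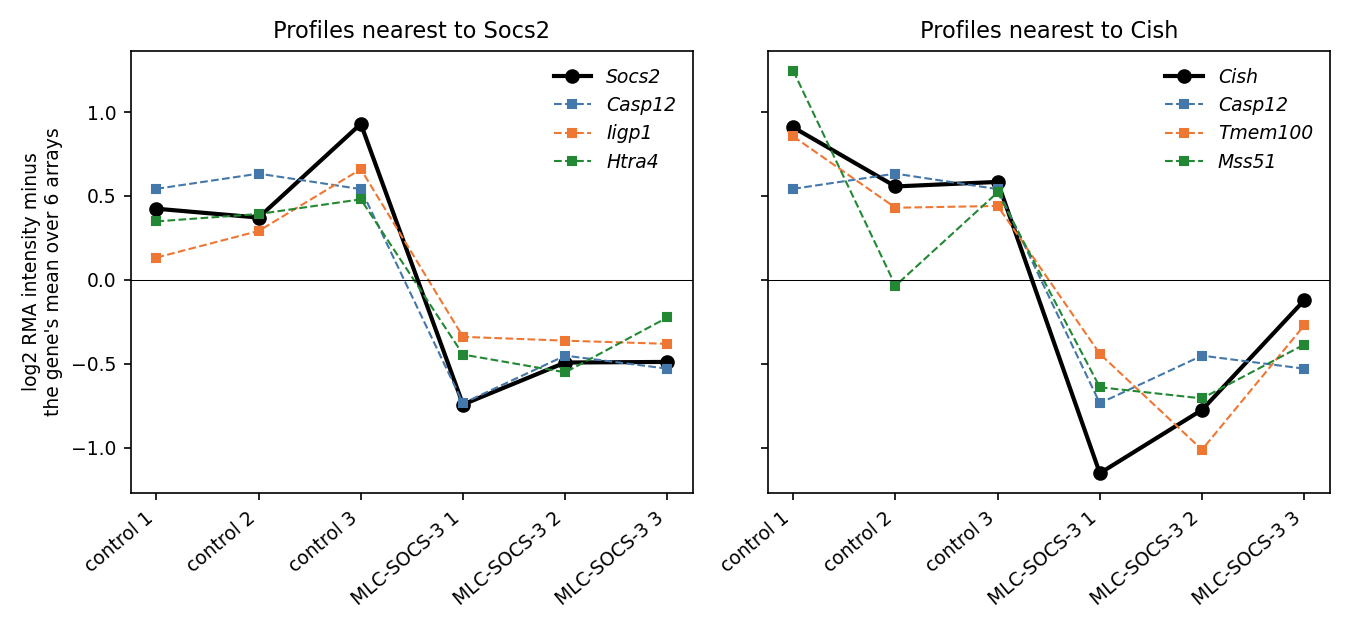
Log2 RMA intensity minus each gene's own mean over the 6 arrays (y axis) on each array (x axis). Socs2 (left, its brighter set) and Cish (right) are in black, and the 3 genes outside the family nearest to each are in colour. Casp12 is nearest to both, at distances of 0.20 and 0.31; lines join arrays only to show the profile.

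Genes that act with or answer to the SOCS proteins were taken from 9 lists, in which 120 of 126 genes were measured. None was called after adjustment. At an unadjusted p under 0.05, 3 were lower and 3 higher, where 3.5% of all genes were lower and 1.36% higher (2.75% and 1.95% with arrays centred on their median). The groups did not overlap for 7 lower and 6 higher genes, against 7.76% and 4.52% of all genes. The median difference was 0.0013 over the lists and -0.02 over all genes.

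None of the 3 Janus kinases measured upstream of the family had an unadjusted p under 0.05. Jak1 was at -0.01 ± 0.06 (SE), Jak2 at 0.06 ± 0.06 and Tyk2 at -0.07 ± 0.09. Of the 6 STAT genes measured, Stat3, which drives Socs3, read 9.19, 9.35 and 9.18 in controls and 8.94, 8.95 and 8.94 on the MLC-SOCS-3 arrays. Its groups did not overlap, with a difference of -0.30 ± 0.07 (SE; limma, adjusted p = 0.79). Stat5a and Stat5b, the genes of STAT5, which drives Cish and Socs2, were at 0.03 ± 0.08 and 0.19 ± 0.10, both with overlapping groups. Stat2, of interferon signalling, was at -0.17 ± 0.13.

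Among 19 receptors that SOCS proteins regulate, 13 differences were positive and 6 negative, with a median of 0.03. The growth hormone receptor Ghr was at 0.02 ± 0.06 (SE), with a 95% interval that leaves at most a 1.12-fold difference either way. The gp130 receptor Il6st was at 0.01 ± 0.06 and the insulin receptor Insr at 0.10 ± 0.07. Cntfr, the receptor for ciliary neurotrophic factor, read 7.50, 7.77 and 7.57 in controls and 7.999, 8.76 and 8.65 on the MLC-SOCS-3 arrays. Its groups did not overlap, with a difference of 0.86 ± 0.21 (SE; limma, adjusted p = 0.80). Epor, the erythropoietin receptor, was at -0.24 ± 0.10 and Csf2rb, the shared chain of interleukin-3 type receptors, at 0.27 ± 0.13, both below the median probe set.

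The ubiquitin ligase that the SOCS box recruits was represented by 9 genes, of which 8 were positive, with a median of 0.07. Its ring subunits Rnf7 and Rbx1 were at 0.24 ± 0.16 (SE) and 0.10 ± 0.08 and the ligase Arih2 at 0.07 ± 0.06. Among 27 other SOCS box adaptors the median was 0.02, and the ankyrin repeat members Asb10, Asb18 and Asb9 were at -0.15 ± 0.08, -0.14 ± 0.07 and 0.18 ± 0.10. Other inhibitors of the pathway had a median of 0.04 over 13 genes. In that list Cblb, a ubiquitin ligase, read 8.11, 8.34 and 8.19 in controls and 8.54, 8.49 and 8.78 on the MLC-SOCS-3 arrays, a difference of 0.39 ± 0.11 without overlap (limma, adjusted p = 0.80). The phosphatase Dusp3 was at -0.20 ± 0.07 and the adaptor Sh2b3 at -0.12 ± 0.07.

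Among other targets of the same STATs, no difference was as negative as that of Cish or of the brighter Socs2 set. Of 14 growth hormone and STAT5 targets, none had an unadjusted p under 0.05, with 11 negative, 3 positive and a median of -0.07. Bcl6, a repressor that shares sites with STAT5, was at -0.38 ± 0.17 (SE), Igfals, a carrier of circulating IGF-1, at -0.22 ± 0.15 and the cyclin gene Ccnd2 at -0.12 ± 0.09. Of 20 interleukin-6 and STAT3 targets, 14 were negative and the median was -0.07. Bcl3, a cofactor of NF-kB, was at -0.24 ± 0.07 without overlap, Junb at -0.30 ± 0.13 and Hif1a at 0.18 ± 0.08. Fos, named after its values were seen, read 7.21, 9.28 and 7.84 in controls and 6.88, 6.94 and 7.59 on the MLC-SOCS-3 arrays, with control replicate 2 far above the rest. That array was not the highest control for Cish or for the brighter Socs2 and Socs3 sets, and it was for the dimmer Socs2 set. Of 9 insulin signalling genes 8 were negative, with Irs1 at -0.18 ± 0.15, Akt2 at -0.07 ± 0.06 and Pik3r1 at 0.16 ± 0.14.

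**Figure D5:**
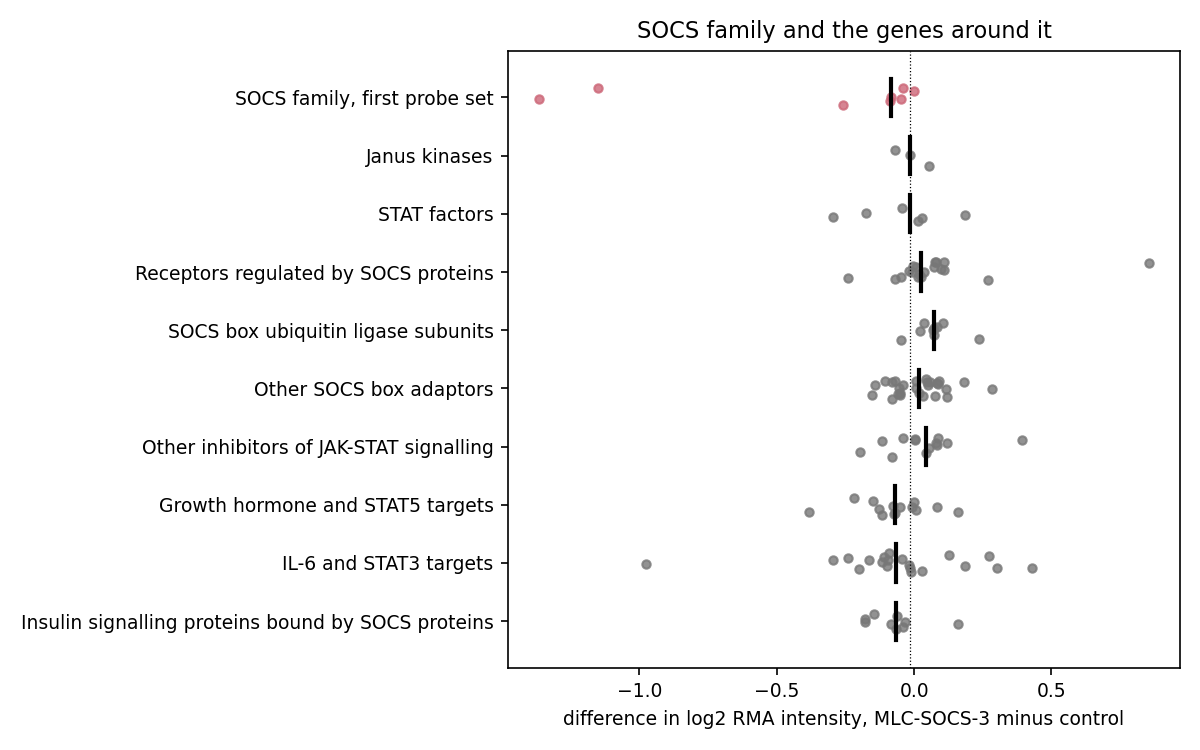
Difference in log2 RMA intensity (x axis, MLC-SOCS-3 minus control) of each gene (points) in the SOCS family, each at its first probe set, and in 9 lists of pathway genes; bars are list medians and the dotted line is the median of all genes. Cish and Socs2 (its brighter set) lie left of every gene in the 9 lists, the nearest being Fos at -0.98.

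Marker levels of 2 other cell types separated the groups. The mean of 7 adipocyte genes, each centred on its own mean, lay between -0.17 and -0.06 on the controls. On the MLC-SOCS-3 arrays it lay between 0.04 and 0.20. All 7 differences were positive, 2 of them without overlap and 1 with an unadjusted p under 0.05. Of these 7 genes 4 lay above the median probe set, and the dimmest had a mean of 4.40. The mean of 8 lymphocyte genes, 7 of them below the median probe set, lay between 0.013 and 0.11 on the controls and between -0.16 and 0.0081 on the MLC-SOCS-3 arrays. In that list 5 differences were negative and 3 positive, and 1 gene, Cd3g (-0.30), was lower without overlap and with an unadjusted p under 0.05. The means of the tendon list overlapped through control replicate 1, at -0.068 against -0.11 to -0.065 on the MLC-SOCS-3 arrays and 0.18 and 0.15 on the other controls. Its median difference was -0.21. Of its 8 genes 3, Mkx (-0.35), Cilp2 (-0.36) and Comp (-0.23), were lower without overlap and with an unadjusted p under 0.05. Among all genes, 7.76% were lower without overlap and 3.5% lower with such a p (4.52% and 1.36% higher). Macrophage means overlapped too, with 1 of 12 genes, Itgam, higher without overlap (0.57) and with an unadjusted p under 0.05. The means of endothelial, fibroblast, Schwann cell, smooth muscle, skeletal muscle and fibre type genes overlapped between the groups. The part of these shifts in the Cish, Socs2 and Socs3 values was not tested.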

How the data were processed

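RNA of 6 tibialis anterior samples was labelled from 300 ng of total RNA and measured on 1 Affymetrix array each. Per the submitters' processing notes, the authors deposited log2 intensities per probe set from RMA, run with Affymetrix Expression Console, whose version, like the genome build, is not given in the sources used. RMA compresses differences of dim and very bright probe sets. The values were used as deposited.

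Symbols came from the platform annotation, which can be old (21789 of 35557 probe sets had 1 symbol, 1621 several and 12147 were unlisted). Of the single symbols, 21698 were matched through Entrez identifiers to the GRCm38.p6 gene table and took its symbol, whether or not that was a change. The groups were compared in R 4.3.3 by the two-sided test of limma 3.58.1 (eBayes, default settings), with Benjamini-Hochberg adjustment over all probe sets and a threshold of 0.05. Pathway and marker genes were taken at their brightest probe set. The number of arrays, 3 a group, limits the precision. The code was tested on simulated data.

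All probe sets of the family were described, with Jak1, Jak2, Stat3, Stat5a, Stat5b, Ghr, Il6st, Insr and Irs1, and from each pathway list up to 3 genes with the smallest p. For Socs2, Cish and Socs3 the 3 genes with the nearest profiles were named, leaving out predicted genes and members of the family. Neighbouring genes, Fos and the single marker genes were picked once their values had been seen. The members and lists were chosen with earlier results of these data known. Alternatives were a replicate block, array centring, quantile normalization, subsets of probe sets, other moderation, array weights, probe set averaging and leaving out each array.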

Additional observations from a re-analysis of the deposited data

How the results depend on the processing

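Cish, both Socs2 and both Socs3 probe sets kept their negative difference under every alternative run for them. Their adjusted p stayed above 0.05 except for the brighter Socs2 set on listed probe sets with a trend and robust moderation, an alternative added with earlier results known (-1.15, adjusted p = 0.039; range over its alternatives 0.039 to 0.93). The count of probe sets called, 0 as reported, became 11 there, 1 with 1 probe set per gene, and 0 to 1 when an array was left out (1 without control replicate 2). The 5 family probe sets at an unadjusted p under 0.05 became 3 with 1 probe set per gene, where only 8 of the 12 remain, and 3 to 5 when an array was left out. These were not always the same sets. Of the 6 omissions, the dimmer Socs3 set kept such a p only in that of control replicate 3. The dimmer Socs2 set lost it in those of control replicate 2 and MLC-SOCS-3 replicate 1, and Socs1 (-0.23) gained it in the latter. When an array was left out, Cish ranged from -1.65 to -1.13, the brighter Socs2 set from -1.25 to -0.97 and the brighter Socs3 set from -0.31 to -0.22.

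Small differences changed sign: Socs1 ranged from -0.23 to 0.018, Socs4 from -0.13 to 0.095, the first Socs6 set from -0.11 to 0.024, the second from -0.0065 to 0.13 and Socs7 from -0.069 to 0.046 when an array was left out. Without MLC-SOCS-3 replicate 3 Socs1 was at 0.018 and the second Socs6 set at -0.0065; without MLC-SOCS-3 replicate 1 Socs4 was at 0.095. The first Socs6 set was at 0.024 without control replicate 1. The mean of the 3 Socs6 sets, the dim one included, was at 0.056. That is a value of the 3 sets together and not of the brightest set, whose locus was not tested. Socs7 was at -0.069 without control replicate 3, at -0.013 without MLC-SOCS-3 replicate 2 and at -0.014 under quantile normalization. The cause was not tested.

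Samples with the same replicate number did not deviate together over all probe sets (correlations of -0.03, -0.02 and -0.04). The labels do not say what the numbers mean, and such correlations cannot show whether they pair the samples. With the replicate number as a block, Cish stayed at -1.37 and the brighter Socs2 set at -1.15 (limma, adjusted p = 0.86 for each), 0 probe sets were called, and 2033 against 2105 had an unadjusted p under 0.05. Without detection calls, how far a probe set lay above background is unknown, which bears most on the third Socs6 set.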
